A study of Mus musculus with 6 samples.

Results

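The genes described here are 10 components of the insulin-like growth factor (IGF) system, taken as a list of gene symbols and matched to the Ensembl identifiers of the deposited count files. The list holds 6 binding protein genes, 1 ligand gene and 3 receptor genes, out of 56940 genes in the files. All 10 were found and all 10 passed the filter on low counts, which left 15407 genes for testing. Igfbp3 passed that filter through its 72 h counts alone.

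RNA came from mouse lens capsules with the lens epithelial cells that stay attached once the fiber cell mass has been taken out, a model of what is left in the eye by cataract surgery. The comparison was between 3 libraries collected at 0 h, directly after that operation, and 3 libraries collected 72 h after it, with 5 capsules pooled in each library. All animals were labelled C57BL/6 and wildtype. Their age was not given in the sources used here, and neither was the meaning of a tag, RUNX_Cre_N, that the descriptions of all 6 libraries share. Per the series design, one eye of a mouse was operated on 72 h before the other, so the intervals may come from the same animals, but the pools are not tied to each other by the labels. The p-values therefore measure only the spread between these pools. The members were selected on measured values, namely earlier results for the expression of these genes in the same 0 h and 72 h contrast, so their levels and fold changes are given as a description and no p-value is attached to them.

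IGF-1 and IGF-2 are secreted peptides that signal through the tyrosine kinase receptor IGF1R and, less strongly in most settings, through the insulin receptor. IGF2R, the cation-independent mannose 6-phosphate receptor, takes up IGF-2 and lysosomal enzymes and has no kinase domain. Binding proteins hold IGFs outside the cell, where they can either restrain or prolong signalling, and several of them also bind matrix or cell surfaces. In the lens, insulin and IGFs are known to promote the growth of epithelial cells and the differentiation of fiber cells.

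The 0 h libraries held 11338820 to 12432688 counts in genes, and the 72 h libraries 8453450 to 8945397. Levels are given as CPM, counts scaled to the library size after TMM adjustment. The lens epithelial marker list, which includes Pax6, Foxe3 and Cryaa, summed to between 79957 and 85165 CPM at 0 h and to between 10956 and 19596 CPM at 72 h, and 10 of its 12 members were called lower by edgeR while 1 was called higher. Markers of macrophages and monocytes summed to between 40.3 and 61.8 CPM at 0 h and to between 268 and 490 CPM at 72 h, with 12 of 16 higher. Neutrophil markers summed to between 0.931 and 2.45 CPM at 0 h and to between 26.6 and 167 CPM at 72 h. Of these, 3 of 4 tested markers were higher, while Ly6g, Mpo, Elane, Camp and Ngp had 0 counts in every library. In the second 0 h library the whole list, at 0.931 CPM, lay below the 0.986 CPM that the filter asked of a gene. No marker could thus pass the filter through its 0 h counts alone, so the calls of this list are descriptions. The third 72 h library stood apart, with surface epithelium markers at 5201 CPM against 6.02 and 113 CPM in the other two, although 0 of the 6 tested markers of that list were called. Mitochondrial genes took 3.75% to 3.91% of counts at 0 h and 16.6% to 25.3% at 72 h, with the highest share in the same library. Photoreceptor markers summed to between 748 and 1845 CPM at 0 h and to between 67.3 and 184 CPM at 72 h, with 9 of 10 lower. The part of these shifts in the results was not tested. Of all tested genes 38.5% were called, 21.0% higher and 17.5% lower, and the counts of called markers are descriptions beside that share. In pooled tissue of this kind, fewer cells of a type and less RNA per cell cannot be told apart.

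Of the 10 members, 4 were higher at 72 h past an adjusted p of 0.05 in edgeR's quasi-likelihood test, 2 were lower and 4 were not past the threshold. Across all tested genes 38.5% were past it, 21.0% higher and 17.5% lower, and because the list was drawn up from this contrast nothing is read from the members' count. The 4 higher genes were Igfbp2, Igfbp3, Igf1r and Igf2r, and the 2 lower genes were Igfbp5 and Igfbp7. Without the first or the third 0 h library, or without the first 72 h library, 2 were called higher, Igfbp3 and Igf2r. The groups did not overlap for 7 members, against 53.5% of all tested genes.

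**Figure D1:**
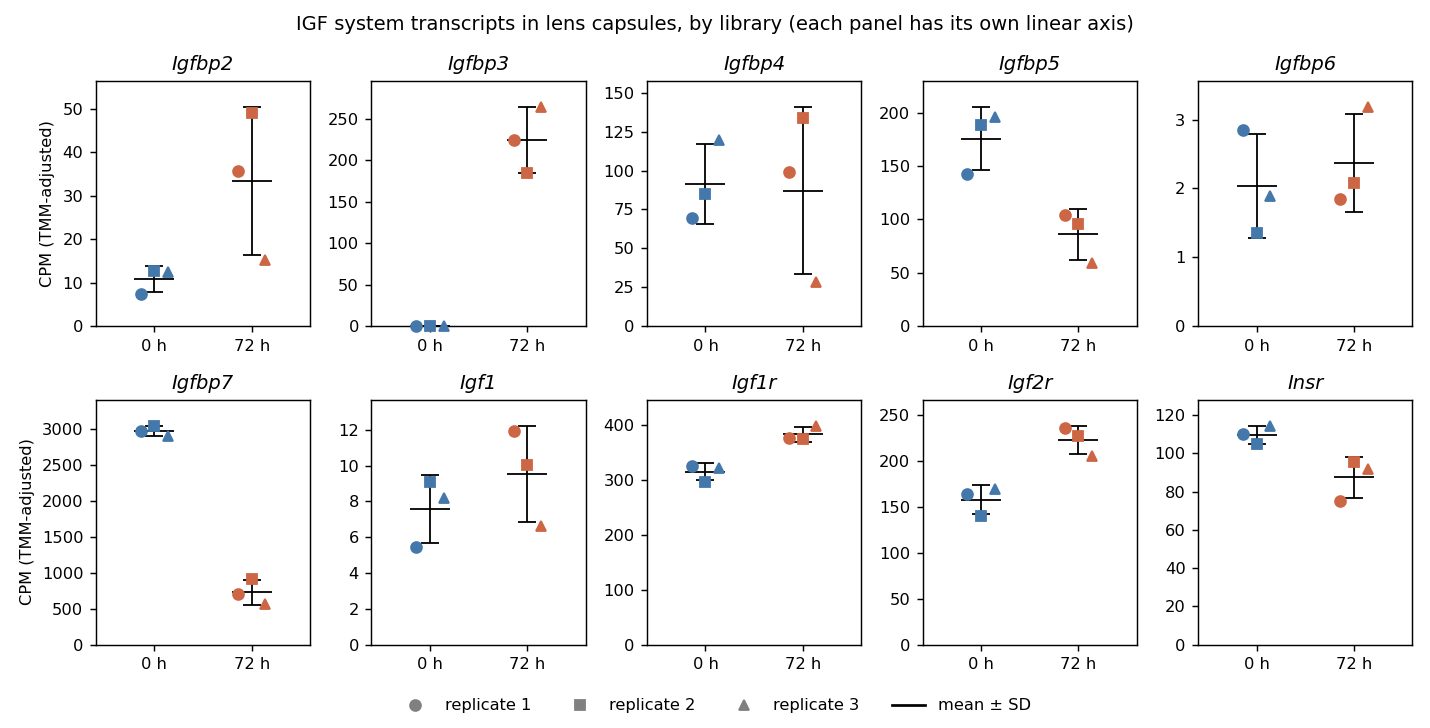
Levels of the 10 genes in CPM (TMM-adjusted) at 0 h and 72 h, 1 panel per gene with its own linear axis from 0, points for the 3 libraries of each group and bars for the mean ± SD. Igfbp3 went from at most 0.169 CPM to between 184 and 264 CPM, Igfbp7 fell from about 2968 to 727 CPM, and the third 72 h library lies low for Igfbp2 and Igfbp4.

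Igfbp3 (ENSMUSG00000020427), which encodes the main IGF carrier of the circulation and is made locally by many cell types, was close to absent at 0 h and abundant at 72 h. It had 0, 2 and 0 counts in the 0 h libraries and 1938, 1595 and 2158 counts in the 72 h libraries, the latter equal to 224, 184 and 264 CPM. Every 72 h library lay far above every 0 h library, and the third 72 h library, which was low for several other binding proteins, was the highest of all. Pooled over libraries, the CPM ratio was 4027 with an exact 95% interval of 1114 to 33264, which covers counting error only because copies made by PCR are not separate molecules. Both early counts fell in the second 0 h library, and leaving it out gave a level at least 1805-fold higher, taken against a floor of 3 counts over the other two libraries. The spread between 72 h libraries was a coefficient of variation of 17.8%, below the median of 24.7% over all tested genes.

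The 250 bases before the RefSeq start of Igfbp3 are shown because this gene made the largest move of the 10 members. They lie at chr11:7213924-7214173 on the minus strand of GRCm38.p6, the build of the RefSeq promoter table and not that of the counts, and capitals mark a match to the RUNX core TGTGGT.
Igfbp3: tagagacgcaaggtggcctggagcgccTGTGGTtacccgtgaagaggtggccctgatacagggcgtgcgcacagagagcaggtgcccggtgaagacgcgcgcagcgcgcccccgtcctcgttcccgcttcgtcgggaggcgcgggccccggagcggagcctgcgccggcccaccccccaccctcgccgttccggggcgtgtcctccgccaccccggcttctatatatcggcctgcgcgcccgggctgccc
This stretch has a GC content of 73.2% and 32 CpG dinucleotides, against medians of 52.4% and 6 over all 32817 promoters of that length. The RUNX core was found on either strand in 14.0% of those promoters, so the match, 223 to 218 bases before the start, is a description of these letters only. The GC box, TATA box, AP-1 site and FOXO site, whose letters are given with the members below, had no match on either strand of this window.

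Igfbp7 (ENSMUSG00000036256) encodes a secreted protein of basement membranes and vessels that binds IGFs weakly and also binds insulin. At 0 h it was one of the most abundant transcripts of the capsule, at 2968, 3041 and 2896 CPM. At 72 h it stood at 699, 916 and 566 CPM. The groups did not overlap, and the 0 h libraries agreed closely, with a coefficient of variation of 2.45%, and 4.33% of tested genes had a lower one. The mean fell 4.08-fold, a log2 change of −2.03 ± 0.16 (SE, n = 3 against 3). Igfbp7 overlaps Polr2b on the opposite strand, which had 2728 counts at 0 h and 1437 at 72 h against 106958 and 18593 for Igfbp7 itself.

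The corresponding 250 bases of Igfbp7, the member with the highest level at both times, lie at chr5:77408046-77408295 on the minus strand of GRCm38.p6, with matches to the GC box GGGCGG or its reverse complement in capitals.
Igfbp7: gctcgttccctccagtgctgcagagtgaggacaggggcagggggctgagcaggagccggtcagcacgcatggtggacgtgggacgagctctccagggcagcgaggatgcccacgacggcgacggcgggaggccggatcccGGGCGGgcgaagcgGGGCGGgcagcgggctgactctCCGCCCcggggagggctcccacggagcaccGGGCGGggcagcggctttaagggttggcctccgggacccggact
It holds 4 GC boxes, a motif found in 32.7% of promoters of this length, and has a GC content of 74.0% with 26 CpG dinucleotides. Igfbp3 and Igfbp7, which moved in opposite directions, thus both have GC-rich and CpG-rich upstream sequence in these windows.

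Igfbp5 and Igfbp2 are immediate neighbours on mouse chromosome 1, with 0 annotated genes between them in the RefSeq order of GRCm38.p6, and they moved in opposite directions. Igfbp5 (ENSMUSG00000026185), a binding protein with affinity for matrix and for hydroxyapatite, was at 142, 189 and 196 CPM at 0 h and at 104, 95.4 and 59.1 CPM at 72 h. The groups did not overlap, the third 72 h library was the lowest, and the log2 change was −1.03 ± 0.22 (SE). Igfbp2 (ENSMUSG00000039323), which carries an integrin-binding motif and is a major binding protein of fetal tissue, was at 7.44, 12.6 and 12.5 CPM at 0 h and at 35.8, 49.0 and 15.2 CPM at 72 h. Here the third 72 h library lay just above the 0 h libraries and well below the other two, so that the rise of 1.61 ± 0.42 on the log2 scale was 1.97 without it. The threshold was missed for Igfbp2 with limma voom and without the first or the third 0 h library or the first 72 h library.

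The sequence before the start of Igfbp5 is given as the contrast to the windows above, since this gene fell with Igfbp7 but has a less GC-rich promoter. It lies at chr1:72874866-72875115 on the minus strand of GRCm38.p6 and holds none of the 5 motifs searched, so no letters are in capitals.
Igfbp5: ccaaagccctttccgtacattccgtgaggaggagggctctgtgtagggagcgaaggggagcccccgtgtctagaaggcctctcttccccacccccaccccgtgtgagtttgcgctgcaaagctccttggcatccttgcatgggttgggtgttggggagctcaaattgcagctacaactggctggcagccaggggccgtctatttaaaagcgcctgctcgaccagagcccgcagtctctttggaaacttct
Its GC content is 58.8% with 10 CpG dinucleotides. RefSeq has a pair of starts for Igfbp2, and the window before the first holds 3 GC boxes whereas that before the second holds 1 AP-1 site (TGANTCA), a motif found in 6.75% of promoters. Promoter entries matched 9 of the 10 members, all but Insr. The FOXO site, searched with the letters TGTTTAC, was found in 3.16% of all promoters and in none of the members' windows.

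Igfbp3 also has a neighbour of its own family, Igfbp1 on chromosome 11, with 0 annotated genes between them. Igfbp1, which encodes a binding protein of liver and decidua that insulin represses, had 0 counts in all 6 libraries. The rise at 72 h was thus seen for Igfbp3 and not for the gene beside it.

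Igfbp4 and Igfbp6 were not past the threshold. Igfbp4 (ENSMUSG00000017493), an IGF inhibitor that the protease PAPP-A cleaves, was at 69.4, 84.9 and 119.9 CPM at 0 h and at 99.3, 133.5 and 28.2 CPM at 72 h. Its 72 h libraries reached both above and below the 0 h range, and the log2 change of −0.07 ± 0.61 (SE) became 0.36 without the third 72 h library and 0.17 without the third 0 h library. Igfbp6 (ENSMUSG00000023046), which prefers IGF-2, was the scarcest binding protein at 72 h, at 1.85, 2.08 and 3.18 CPM, and stood at 2.85, 1.35 and 1.89 CPM at 0 h. It had 73 counts at 0 h and 60 at 72 h in all, so its log2 change of 0.22 ± 0.59 leaves a wide range of changes undetectable at this depth. That change was −0.02 without the second 0 h library and −0.04 without the third 72 h library. In the RefSeq windows, Igfbp4 has a TATA box (TATAAA) 28 to 23 bases before its start, and Igfbp6 has its reverse complement 148 to 143 bases before its start. On either strand, 12.4% of promoters hold this motif.

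Per length of the gene's exons, Igfbp7 held most of the binding protein transcripts at both times, with a smaller share at 72 h. Levels between genes are compared here as CPM per kilobase of exon (CPM per kb), with exon lengths from GENCODE M21. Igfbp7 made up 97.7% ± 0.467 of the summed CPM per kb of the 6 genes at 0 h and 82.4% ± 2.31 at 72 h (SD, n = 3 each). The share of Igfbp3 went from 0.000700% to 10.4% ± 3.98, and that of Igfbp2 from 0.234% ± 0.0634 to 2.37% ± 0.837. The share of Igfbp5, whose own level fell, went from 1.16% ± 0.196 to 1.97% ± 0.398 because the total fell further. In CPM, the 6 genes summed to 3249 ± 72.1 at 0 h and 1160 ± 222 at 72 h, while the 5 genes other than Igfbp7 summed to 280 ± 54.8 and 433 ± 54.9.

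**Figure D2:**
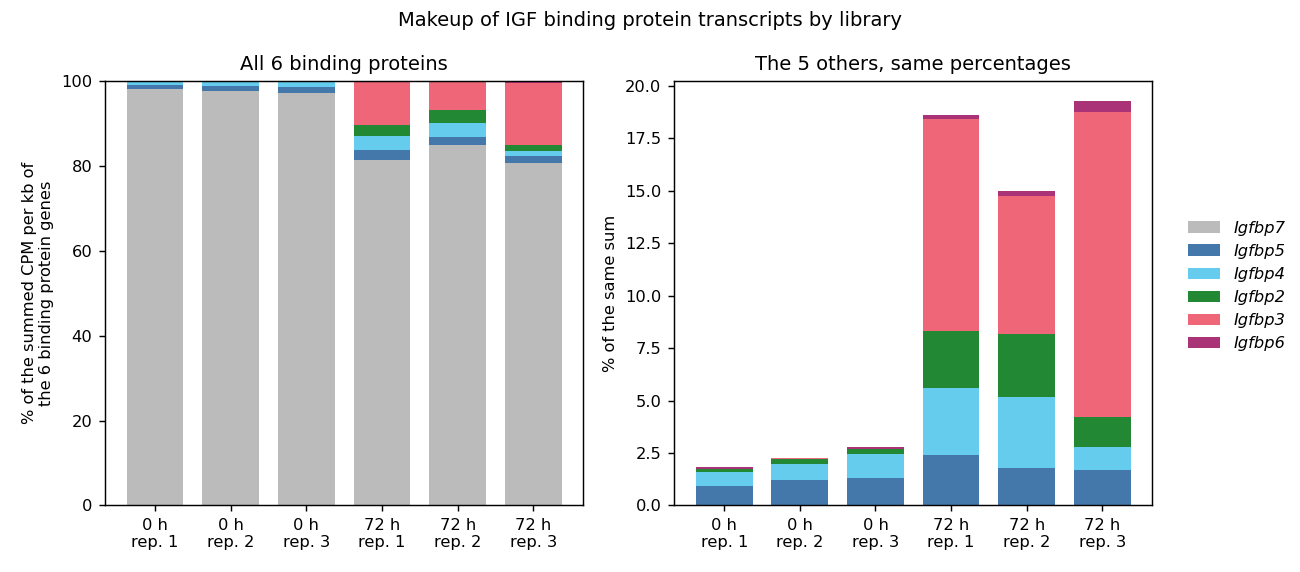
Share of each binding protein gene in the summed CPM per kb of all 6, in percent, as stacked bars for the 6 libraries; the right panel leaves out Igfbp7 and keeps the same percentages on a smaller axis. Igfbp7 takes nearly the whole bar at 0 h, and Igfbp3 is the largest of the others in each 72 h library.

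Ranked by CPM per kb among 15165 tested genes with a known length, Igfbp7 was in place 11 at 0 h and place 21 at 72 h, and Igfbp3 moved from place 15051 to place 325. At 0 h the order of the members was Igfbp7 (2455 CPM per kb), Igfbp5 (29.3), Igfbp4 (20.7), Igf1r (18.8), Igf2r (16.9), Insr (7.99), Igfbp2 (5.88), Igfbp6 (1.83), Igf1 (0.764) and Igfbp3 (0.0180). Each neighbouring pair from Igfbp5 to Igf2r overlapped between libraries, and the other neighbours did not. At 72 h Igfbp7 (601 CPM per kb) was followed by Igfbp3 (71.6), then by Igf2r (23.9), Igf1r (22.9), Igfbp4 (19.7), Igfbp2 (18.03) and Igfbp5 (14.3), each of which overlapped the next, and then by Insr (6.36), Igfbp6 (2.13) and Igf1 (0.962).

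The ligand genes were scarce. Igf1 (ENSMUSG00000020053) was at 5.45, 9.06 and 8.20 CPM at 0 h and at 11.9, 10.05 and 6.60 CPM at 72 h. The groups overlapped, and the log2 change of 0.33 ± 0.35 (SE) was not past the threshold. In the same libraries the summed macrophage and monocyte markers, a cell type known to make IGF-1, were at 40.3 to 61.8 CPM at 0 h and 268 to 490 CPM at 72 h, and their part in the Igf1 level was not tested. Igf2, the gene of the second ligand, had 19 counts at 0 h and 23 at 72 h over 3 libraries each and did not pass the filter on low counts, and Ins1 and Ins2, the insulin genes, had 0 counts in every library.

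The receptors were expressed at both times with little spread between libraries. Igf1r (ENSMUSG00000005533), the signalling receptor for both IGFs, was at 326, 297 and 322 CPM at 0 h and at 377, 375 and 399 CPM at 72 h. The groups did not overlap, but the difference was small, with a mean 1.22-fold higher and a log2 change of 0.28 ± 0.09 (SE). It was past the threshold under 7 of 15 alternatives, and missed it under upper quartile scaling, library size alone, no filter and the replicate block, and without the first 72 h library or any one 0 h library.

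Igf2r (ENSMUSG00000023830), the clearance receptor for IGF-2, was at 164, 140 and 169 CPM at 0 h and at 235, 227 and 206 CPM at 72 h. Every 72 h library was above every 0 h library, and the mean was 1.41-fold higher (log2 change 0.50 ± 0.11, SE). Igf2r overlaps the noncoding gene Airn on the opposite strand, which had 1282 counts at 0 h and 1152 at 72 h against 5688 and 5681 for Igf2r, and the strand setting of the counting was not given in the sources used here. Insr (ENSMUSG00000005534), the insulin receptor, was at 110, 105 and 114 CPM at 0 h and at 75.0, 95.4 and 91.8 CPM at 72 h. Its libraries did not overlap either, yet the log2 change of −0.33 ± 0.12 was not past the threshold, and it was under 6 of the 15 alternatives.

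Among receptor transcripts, the balance moved from Insr toward Igf2r. Per kb, Insr made up 18.3% ± 0.548 of the summed level of the 3 receptors at 0 h and 12.0% ± 1.48 at 72 h (SD, n = 3 each). Igf2r made up 38.7% ± 1.31 and 45.0% ± 2.78, and Igf1r 43.01% ± 0.903 and 43.03% ± 1.94. These are shares of transcripts and say nothing of receptor protein.

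The spread between replicate libraries at 72 h was wider for the binding proteins than for the receptors. The coefficient of variation was 61.7% for Igfbp4 and 51.2% for Igfbp2, far above the 3.66% and 5.92% that counting alone would give. For Igf1r it was 3.49%, with 2.72% of tested genes lower, and for Igf2r it was 6.89%. The third 72 h library was lower than the mean of the other two by 2.04 on the log2 scale for Igfbp4, by 1.48 for Igfbp2, by 0.75 for Igfbp5 and by 0.51 for Igfbp7. Given as a log2 ratio to the same mean, positive where that library was higher, Igfbp3 was at 0.37 and Igfbp6 at 0.69. Igf1r and Insr were at 0.09 and 0.11, and Igf2r and Igf1 at −0.17 and −0.73. In that library the fibroblast and mesenchyme markers summed to 240 CPM against 557 and 708 CPM in the other two and 674 to 754 CPM at 0 h, with 4 of 6 tested markers higher at 72 h, 1 lower and Dpt at 0 counts throughout. Pigment cell markers summed to 21.5 CPM there, against 71.8 and 55.3 CPM in the other two and 51.4 to 86.4 CPM at 0 h, with 2 of 7 tested markers lower. Of all tested genes 21.0% were called higher and 17.5% lower, and nothing is read from these marker counts. The part of these cell types in the spread was not tested.

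**Figure D3:**
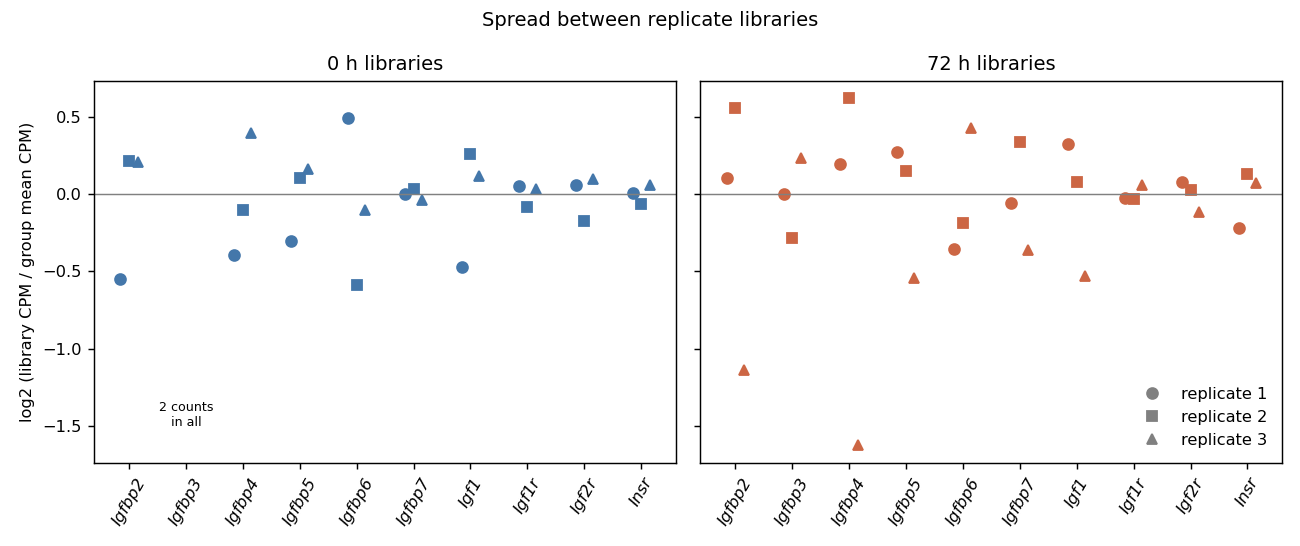
Log2 ratio of each library's CPM to the mean of its group for the 10 genes, at 0 h (left) and 72 h (right), with a marker shape per replicate; Igfbp3 is left out at 0 h, where it had 2 counts in all. The third 72 h library is the lowest for Igfbp2, Igfbp4, Igfbp5, Igfbp7, Igf1 and Igf2r, and Igf1r lies close to 0 in every library.

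The tested genes most like each member in pattern were taken as those with the smallest root mean square difference of centred log2 CPM over the 6 libraries, among 13017 named genes. For Igfbp7 they were Arhgap24 (0.04) and the FGF receptor gene Fgfr2 (0.07), and for Igfbp5 Zcwpw1 (0.08) and Polr2i (0.10). For Igf1r they were Xrcc1 (0.03) and Rock1 (0.03), for Igf2r Rsu1 (0.04) and the integrin gene Itga3 (0.05), and for Insr Itm2b (0.02) and Setd3 (0.04). No gene came as close to Igfbp3, whose nearest were Plaur (1.09), the urokinase receptor gene, and Fbln2 (1.11), which encodes the matrix protein fibulin-2. Igfbp3 had 2 counts in all at 0 h, so its log2 values there rest largely on the prior count of 0.5. The distances from Igfbp3 are therefore not comparable with those of the other members. The nearest to Igfbp2 were Wdhd1 (0.16) and Sept1 (0.17), to Igfbp4 Eif3s6-ps2 (0.18) and Tpgs2 (0.18), to Igfbp6 Rbm12b2 (0.15) and Ccdc57 (0.16), and to Igf1 Prr5 (0.05) and Armc6 (0.08). With 6 libraries in 2 groups, such closeness is shared by many genes of like fold change.

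The rest of the pathway was read from 7 lists of 107 genes, of which 92 were tested. In the edgeR fit, with the adjustment made over every tested gene, 33 rose and 20 fell at 72 h. That is 57.6% of those tested, beside 38.5% of all tested genes. The lists were chosen with earlier results of these data known, so nothing is read from that share. The median log2 change of the 92 genes was 0.04, and that of all tested genes was −0.02. Without the third 72 h library, 37 rose and 24 fell. Of the 92 genes, 8 reached the filter on low counts in all 3 libraries at 72 h and not at 0 h, among them Stc1, Esm1, Ccn4 and Socs2, and 4 did so at 0 h and not at 72 h, among them Klf15 and Igf2bp1. Such genes were tested through the group in which they were high. Their calls and their lists' counts and medians are therefore descriptions of the genes that passed.

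Among ligands and binding partners that are not members, 2 of 9 genes were tested. Igfals, which encodes the acid-labile subunit that joins IGF and IGFBP-3 or IGFBP-5 in a ternary complex, fell. It was at 15.7, 19.8 and 21.1 CPM at 0 h and at 1.85, 1.62 and 3.79 CPM at 72 h, a log2 change of −2.96 ± 0.38 (SE; edgeR adjusted p = 2.1e-04). The transcripts of Igfals and of Igfbp3, partners in that complex, thus moved in opposite directions in these libraries.

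Proteases and inhibitors that act on binding proteins rose for 6 of 10 tested genes and fell for 1. The called share was 70.0%, beside 38.5% of all tested genes. Pappa, whose protease cleaves IGFBP-4 and IGFBP-5, was at 45.1, 57.5 and 42.8 CPM at 0 h and at 141, 121 and 221 CPM at 72 h (log2 change 1.73 ± 0.23, SE; edgeR adjusted p = 6.2e-04). Its highest library was the third of the 72 h group, in which Igfbp4 and Igfbp5 were at their lowest. Igfbp2, Igfbp7, Igf1 and Igf2r were also lowest of the 72 h group in that library. Any link between these transcript levels was not tested. Stc1, which encodes an inhibitor of PAPP-A, rose from 0.678 ± 0.386 to 5.96 ± 1.72 CPM (SD, n = 3 each; log2 change 3.12 ± 0.62, SE). Stc1 reached the filter on low counts in all 3 libraries only at 72 h, so its rise is a description. Adam12, a metalloprotease reported to cleave IGFBP-3 and IGFBP-5, rose from 4.59 ± 2.61 to 239.8 ± 23.9 CPM (log2 change 5.70 ± 0.50, SE; edgeR adjusted p = 4.9e-04). Ctsd, the lysosomal protease cathepsin D, rose by 1.57 ± 0.30 (edgeR adjusted p = 0.0069), a call that was lost with no filter on low counts. Htra3, a secreted serine protease with a binding protein domain, fell by 0.41 (edgeR adjusted p = 0.043), a call that was lost without the first 72 h library or any one 0 h library.

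Relatives that share the IGF-binding domain, whose affinity for IGFs is low or unknown, rose for 5 of 8 tested genes and fell for 1. Their median log2 change was 2.61, and 75.0% were called, beside 38.5% of all tested genes. Ccn3, Ccn4 and Esm1 reached the filter on low counts in all 3 libraries only at 72 h, so this count and median are descriptions. Esm1, the endothelial proteoglycan endocan, had 1 count over the 0 h libraries and 692 over the 72 h libraries, and the CPM ratio was 979 with an exact 95% counting interval of 175 to 38741. That count lay in the first 0 h library, and leaving it out gave a level at least 222-fold higher. The 72 h libraries were at 47.8, 11.9 and 21.5 CPM, a coefficient of variation of 68.7% against 6.58% from counting alone. The counting interval does not cover this spread. The matricellular gene Ccn1 rose by 4.04 ± 0.24 on the log2 scale (SE, edgeR adjusted p = 7.6e-06). Ccn4, also matricellular, rose by 4.85 ± 0.29 on that scale, which is a description for the reason given. Crim1, a transmembrane protein of the lens that binds bone morphogenetic proteins, fell from 2840 ± 21.0 to 1579 ± 231 CPM (SD, n = 3 each; log2 change −0.85 ± 0.11, SE; edgeR adjusted p = 3.0e-04).

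Adaptors and inhibitors at the receptors rose for 10 of 22 tested genes and fell for 4, or 63.6% called beside 38.5% of all tested genes. The insulin receptor substrates, which couple both receptors to phosphoinositide 3-kinase (PI3K), differed. Irs1 was at 154, 156 and 164 CPM at 0 h and at 44.2, 65.3 and 52.6 CPM at 72 h (log2 change −1.55 ± 0.14, SE; edgeR adjusted p = 2.7e-05). Irs2 was at 49.9 ± 6.84 and 52.7 ± 11.1 CPM (SD, n = 3 each) and was not called (log2 change 0.08 ± 0.18, SE; edgeR adjusted p = 0.764), and the difference between the 2 substrates was not tested. Gab1, another docking protein, fell by 0.77 ± 0.10 on the log2 scale (edgeR adjusted p = 3.1e-04). The cytokine and growth factor feedback gene Socs3 rose by 4.13 ± 0.14 (edgeR adjusted p = 5.2e-08), and the adaptor gene Dok1 by 2.81 ± 0.54 (edgeR adjusted p = 0.0025). Socs2, another feedback gene, rose by 3.42 ± 0.64. Socs2 reached the filter on low counts in all 3 libraries only at 72 h, so its rise is a description. Grb10, an inhibitor of both receptors, was called higher, from 5.21 ± 1.79 to 14.8 ± 8.87 CPM (SD, n = 3 each; edgeR adjusted p = 0.038), but its groups overlapped, and the call was lost with limma voom and without the first 72 h library or any one 0 h library. Socs7 fell by 0.44 (edgeR adjusted p = 0.043) and lost its call under 9 of 15 alternatives, among them leaving out any one library other than the third 72 h library.

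Genes of the PI3K, AKT and mTOR branch had the list median nearest 0, a log2 change of 0.02. Of 32 tested genes 7 were higher and 5 lower, or 37.5% called beside 38.5% of all tested genes. Mtor itself fell from 629 ± 19.6 to 257 ± 39.6 CPM (SD, n = 3 each; log2 change −1.29 ± 0.12, SE; edgeR adjusted p = 2.8e-05). Pik3r1, the regulatory subunit of PI3K, fell by 0.88 ± 0.15 (edgeR adjusted p = 0.0012), and the ribosomal protein gene Rps6 by 0.78 ± 0.10 (edgeR adjusted p = 2.0e-04). Inpp5d, a lipid phosphatase of blood cells, rose by 3.34 ± 0.47 (edgeR adjusted p = 4.0e-04). The macrophage and monocyte markers given above were higher in the same libraries, and their part in it was not tested. Eif4ebp1, a translation repressor that mTOR inactivates, rose by 1.44 ± 0.23 (edgeR adjusted p = 7.7e-04), and the catalytic subunit gene Pik3cb by 1.20 ± 0.26 (edgeR adjusted p = 0.0056).

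AKT keeps FOXO transcription factors out of the nucleus. The genes of these factors and those known as their targets fell for 7 of 16 tested members and rose for 4. Their median log2 change was −0.51, and 68.8% were called, beside 38.5% of all tested genes. Foxo1 was at 76.4 ± 0.771 and 71.6 ± 9.39 CPM (SD, n = 3 each) and was not called (log2 change −0.09 ± 0.13, SE; edgeR adjusted p = 0.596). The stress-induced sestrins Sesn1 and Sesn3 had log2 changes of −2.01 ± 0.15 and −1.69 ± 0.14 (SE, edgeR adjusted p = 7.5e-06 and 1.2e-05). Klf15, a metabolic transcription factor, fell by 3.15 ± 0.52 on that scale. Klf15 reached the filter on low counts in all 3 libraries only at 0 h, so its fall is a description. Txnip, which restrains glucose uptake, rose by 2.57 ± 0.35, the growth arrest gene Gadd45a by 1.67 ± 0.28 and the cell death gene Bcl2l11 by 1.39 ± 0.15 (SE; edgeR adjusted p = 6.1e-04, 0.0011 and 8.7e-05). The list did not move in 1 direction.

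Of the Igf2 mRNA-binding proteins, which bind many transcripts besides Igf2, Igf2bp1 fell from 10.5 ± 3.02 to 1.51 ± 0.902 CPM (SD, n = 3 each; log2 change −2.77 ± 0.54, SE). Igf2bp1 reached the filter on low counts in all 3 libraries only at 0 h, so its fall is a description. Igf2bp2 rose from 12.2 ± 5.97 to 26.0 ± 3.70 CPM (log2 change 1.10 ± 0.32, SE; edgeR adjusted p = 0.021), a call that was lost without the first or the third 0 h library or the second 72 h library.

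**Figure D4:**
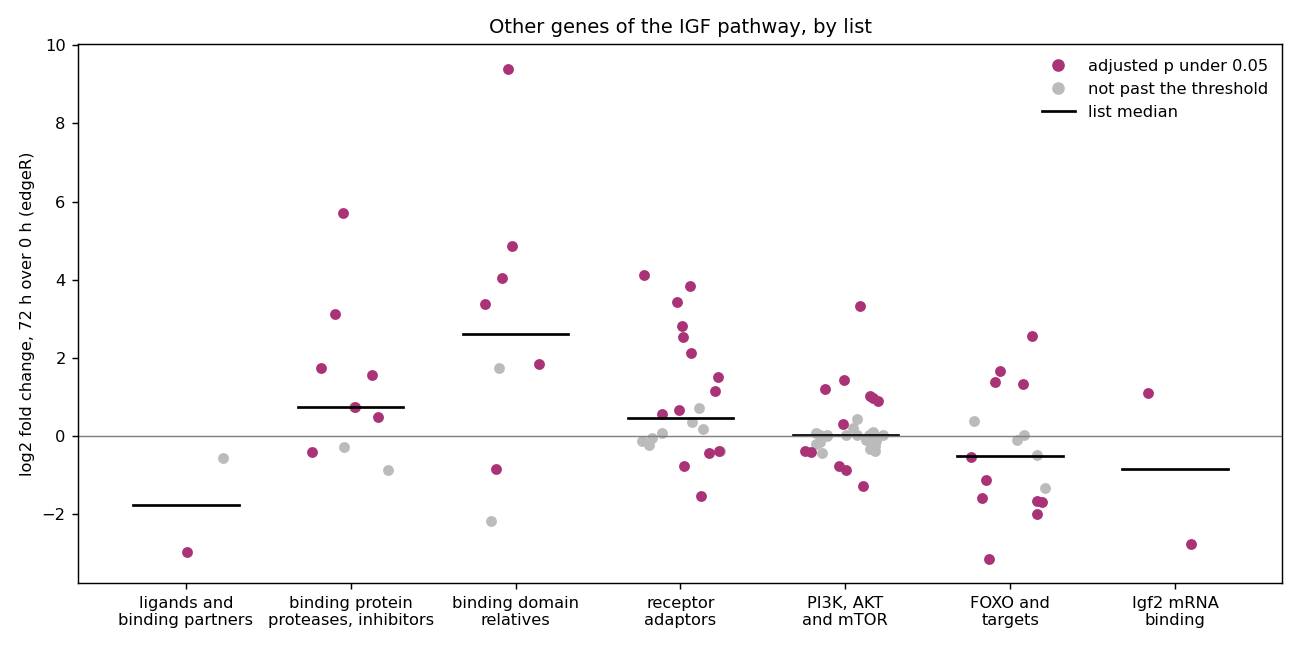
Log2 fold change, 72 h over 0 h, of the 92 tested pathway genes in 7 lists, with 1 point per gene, coloured where the edgeR adjusted p is under 0.05, and a black line for each list's median. The binding domain relatives have the highest median (2.61) and the PI3K, AKT and mTOR genes centre near 0. Medians cover only genes that passed the filter on low counts, so they are descriptions.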

How the data were processed

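Total RNA of pooled lens capsules was sequenced; the labels' protocols name a stranded kit, Takara SMARTer Stranded Pico v2. The authors deposited raw counts of reads per Ensembl gene, with no normalization. Per the submitters' processing notes, HISAT2, HTSeq, edgeR and the GRCm39 build were used. Tool versions, annotation release and strand setting: not given in the sources used here. Reads assigned to no gene (41.9% to 51.7% of a library) stayed out of library sizes and tests.

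Symbols were matched by Ensembl identifier to GENCODE M21 (GRCm38), from which exon lengths were also taken. Genes were filtered with filterByExpr (minimum count 10, minimum total 15), scaled by TMM and tested with edgeR 4.0.16 in R 4.3.3 (quasi-likelihood, robust, time as the only term, two-sided) with Benjamini-Hochberg adjustment over 15407 genes and a threshold of 0.05. Fold changes use a prior count of 0.125, and the SE is the log2 change over the root of F. The fit was tested on simulated data.

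The members and lists were chosen with earlier results of these data known. The named genes are the members, 11 pathway genes fixed by name, and from each list up to 3 called rises and 3 called falls of largest size with a mean of at least 5 CPM. One gene under this rule is not reported here. Of 217 list symbols, 216 were matched. Alternatives were other scalings, filters and tests (DESeq2 1.42.0, limma 3.58.1), a replicate block, and leaving out each library. Motifs were chosen after the promoters had been seen, and Ins1 and Ins2 were named after their counts were seen.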

Additional observations from a re-analysis of the deposited data

How the results depend on the processing

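The counts of genes past the threshold were recomputed under 15 alternatives. Among the members, 2 were called higher without 0 h replicate 1, without 0 h replicate 3 and without 72 h replicate 1, and leaving out 1 library gave 2 to 4 higher and 2 to 3 lower. Over all genes, the 15 alternatives gave 2511 to 3646 higher and 1877 to 3265 lower, and for the other pathway genes 26 to 37 higher and 17 to 24 lower. Igfbp3, Igf2r, Igfbp5 and Igfbp7 were past the threshold under all 15. The members were selected on the contrast of 0 h with 72 h, so this is a description of these libraries. Irs2, not called, changed sign under upper quartile scaling (−0.00765), without 0 h replicate 2 (−0.0226) and without 72 h replicate 3 (−0.0547), as did Foxo1 (0.00427) without 72 h replicate 1; the cause was not tested. Leaving out 1 library gave −0.0547 to 0.23 for Irs2 and −0.163 to 0.00427 for Foxo1. With the replicate block, 3 members were called higher and 2 lower, and 2921 genes were called higher and 2507 lower over all. Deviations of same-numbered libraries correlated at −0.04, 0.06 and −0.01, and not every library correlated best with its own number, so the numbers were not taken to pair the pools. Low counts limit Igfbp6 and Igf2. For Igf1 and Igfbp4 the spread between libraries was wider than counting alone gives.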
